A study of Rattus norvegicus with 16 samples.

Results

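Whole sciatic nerve of the rat collected 3 days after a crush was compared with whole uncrushed nerve across all measured genes. The comparison took in every library labelled as whole nerve at 3 days (2 libraries) or as uncrushed whole nerve (2 libraries), 4 of the 16 libraries of the series. The other libraries hold whole nerve at 5 and 7 days and Schwann cells purified from nerves at the same stages. Rats underwent a forceps crush of the left sciatic nerve at the middle of the thigh at postnatal day 18, and the part of the nerve distal to it was taken. The paper calls the uncrushed nerves naive, without stating whether they came from separate rats. They are also labelled postnatal day 18, and an equivalent segment was taken. There was no sham operation, so exposure of the nerve cannot be told apart from the crush itself. If the uncrushed nerves were collected at the labelled age, the crushed group was 3 days older, and age cannot be told apart from injury in this design. Each library pooled at least 10 nerves, and the tissue was lysed without dissociation. Each library is therefore a mean over many nerves, and the p-values below measure the spread between pools of nerves. For whole nerve that spread was estimated jointly over all 8 libraries, 2 pools per group, including those at 5 and 7 days.

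A crush cuts the axons but leaves the tubes of basal lamina around them in place. Distal to the injury the axons disintegrate, and the Schwann cells that had wrapped them give up their myelin, divide and turn into repair cells that secrete trophic factors. Macrophages enter from the blood, join those resident in the nerve and clear myelin and axon debris. Fibroblasts, perineurial cells and blood vessels make up the rest of the tissue, so an RNA sample of whole nerve mixes the changes within each cell type with changes in their numbers. In such bulk samples fewer cells of a type and less RNA per cell cannot be told apart.

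The label of the tissue was checked against markers. The uncrushed libraries carried the myelin genes of mature nerve at very high levels, with Pmp22 at a mean of 30100 TPM (a level corrected for transcript length, with an equal sum in each library). Markers of fibroblasts, vessels, perineurium and resident macrophages were present as well. The libraries held 15635624 and 10555067 expected counts in uncrushed nerve and 18526827 and 20203912 at day 3. Within each group the replicates differed beyond sampling noise, with a chi-square per gene of 13.22 in uncrushed nerve and 13.41 at day 3. In the day 5 and day 7 whole nerve groups, which also enter the estimate of spread, the chi-square per gene was 8.551 and 22.69. The share of counts from the mitochondrial genome was 15.62 and 14.17% in uncrushed nerve against 6.437 and 6.635% at day 3. The 10 most abundant genes took 30.88 and 30.19% of TPM before and 17.23 and 16.2% after crush. Because so much of the uncrushed library was spent on few genes, the scaling matters. Levels are given below as CPM, counts scaled to library size by the TMM factors, which centre the median log2 fold change of all genes at 0.0029. Scaling by library totals alone would move that median up by 0.41.

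Of 31038 genes in the files, 15831 passed the filter on low counts and entered edgeR's quasi-likelihood test. At an adjusted p below 0.05, 7212 genes changed (45.6% of those tested), 3654 upward (23.1%) and 3558 downward (22.5%). By library totals alone the split was 7009 upward and 1843 downward. Among the called genes, 1650 rose and 1647 fell at least 2-fold (10.4% each). At least 16-fold changes numbered 122 upward (0.771%) and 176 downward (1.11%). The values of both groups did not overlap for 37.6% of genes in the upward and 36.3% in the downward direction, so each count of genes that moved has to be read against these shares.

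**Figure D1:**
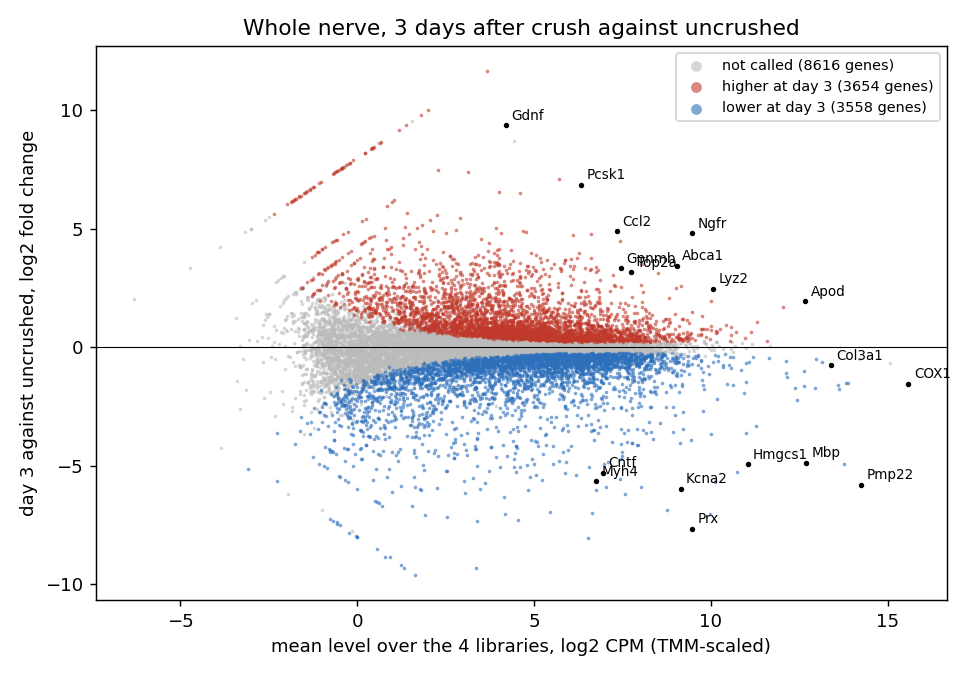
Level and change of every tested gene in whole nerve. The x axis is the mean level over the 4 libraries (log2 CPM) and the y axis the log2 fold change from uncrushed to day 3, with 3654 genes called higher in red, 3558 called lower in blue and uncalled genes in grey. Myelin genes such as Pmp22 and Mbp lie at the far right and low, Gdnf and Pcsk1 lie high, and the slanting lines of points at the left are genes with 0 counts in 1 group, for which the plotted change depends on the constant that the model adds.

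Pcsk1, a convertase that cleaves prohormones and neuropeptide precursors, had the lowest adjusted p of the upward genes, at 1.26 and 1.53 CPM in uncrushed nerve and 158 and 162 CPM at day 3, 116-fold higher (log2 fold change 6.86 ± 0.14 SE, edgeR adjusted p = 9.03e-10). Its libraries were far apart between the groups and close within them. The 15 best supported upward genes included the division genes Rrm2, Prc1, Anln, Ndc80, Ccnb1 and Top2a, the macrophage genes Gpnmb and Lyz2, the cholesterol exporter Abca1, the transcription factor Runx2 and the receptor Gpr83. The downward direction was led by Mbp, Pmp2, Hmgcs1, Cntf and Cldn19, that is by myelin proteins, a cholesterol enzyme and a neurotrophic factor. Prrg3 and LOC102546678, also in that group, carried identical values and are overlapping records whose reads cannot be assigned to either.

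Tyrp1, an enzyme of the melanosome, was at 0.237 and 0.469 CPM in uncrushed nerve and 30.9 and 32.9 CPM at day 3, 94.2-fold higher. Ucn2, which encodes the stress peptide urocortin 2, went from 0.71 and 0.235 to 48.95 and 46.8 CPM. Ptprn, a membrane protein of secretory granules, went from 0.947 and 0.822 to 30.2 and 28.6 CPM. For all of these the day 3 libraries stood well above both uncrushed ones. Kng1l1, a kininogen-like gene, had 0 counts in uncrushed nerve and 6.601 and 9.52 CPM at day 3, at least 27.4-fold higher when 3 counts per library are taken as the floor. In the downward direction Dcdc2, which encodes a microtubule-binding protein, fell from 186 and 183 to 1.22 and 0.228 CPM, 261-fold. Its log2 fold change was -9.60 without day 3 library 1 and -7.22 without day 3 library 2, against -8.03 ± 0.48 SE with both. Col2a1, the collagen of cartilage, fell from 348 and 406 to 5.58 and 4.69 CPM, and this was among the best supported changes of all (log2 fold change -6.20 ± 0.14 SE, edgeR adjusted p = 1.46e-09).

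Myelin genes fell as a block. All 18 genes listed as markers of myelinating Schwann cells were tested and all 18 fell (0 rose, against 22.5% of all genes called lower), with a median log2 fold change of -4.90 beside 0.0029 over all genes. Pmp22, an abundant integral protein of peripheral myelin, stood at 33560 and 43190 CPM in uncrushed nerve and 759.8 and 623 CPM at day 3, 55.5-fold lower (log2 fold change -5.79 ± 0.17 SE, edgeR adjusted p = 5.22e-09). Mbp, which compacts the cytoplasmic faces of myelin, fell 29.2-fold from 12330 and 13270 to 458 and 418 CPM. In both the libraries of a group lay close together and the groups were more than an order of magnitude apart. As a share of all TPM the 18 genes took 5.605 and 7.059% of uncrushed nerve and 0.2765 and 0.2604% at day 3.

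Prx, which encodes periaxin of the outer Schwann cell membrane, went from 1357 and 1465 to 8.84 and 5.28 CPM, 201-fold lower. Drp2, the partner of periaxin in the dystroglycan complex, went from 1959 and 2020 to 17.9 and 12.3 CPM. Mag, an adhesion molecule facing the axon, went from 81.2 and 93.2 to 0.914 and 0.501 CPM, and Cldn19, the claudin that seals Schwann cell membranes at the paranode, from 799 and 925 to 8.63 and 6.38 CPM. These 4 falls ran from 115-fold to 201-fold. Egr2, the transcription factor that drives the myelin programme, fell less, 9.89-fold, with 127 and 146 CPM in uncrushed nerve and 11.5 and 15.99 at day 3. Among the shallow falls were those of Cnp, an enzyme of noncompact myelin (357 and 412 against 279 and 238 CPM, 1.49-fold) and the Schwann cell signal Dhh (122 and 132 against 60.2 and 66.2 CPM, 2.01-fold). The fall of Cnp was no longer called when only library totals were used for scaling.

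Cholesterol synthesis, which myelin membrane growth depends on, fell in all 23 tested genes of its list (0 rose), with a median log2 fold change of -3.03. Hmgcs1, at the entry of the pathway, stood at 4021 and 4122 CPM in uncrushed nerve and 134 and 132 CPM at day 3, 30.6-fold lower (log2 fold change -4.94 ± 0.10 SE, edgeR adjusted p = 9.03e-10). Idi1, which isomerises the isoprene unit, fell 21.6-fold from 314 and 372 to 14.3 and 17.4 CPM. Tm7sf2, a sterol reductase late in the pathway, fell 37.6-fold from 23.99 and 27.7 to 1.07 and 0.319 CPM. Its log2 fold change was -6.29 without day 3 library 1 and -4.58 without day 3 library 2. The falls ran from the start of the pathway to its end. Srebf2, the transcription factor that controls these genes, fell 2.93-fold from 43.2 and 50.8 to 17.7 and 14.4 CPM. Stard4, a carrier of cholesterol between membranes, fell least, 1.75-fold. The list took 0.4037 and 0.4351% of TPM in uncrushed nerve and 0.05347 and 0.05483% at day 3.

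Lipid genes outside cholesterol synthesis split. Of 20 genes of fatty acid and myelin lipid synthesis 11 fell and 3 rose (median -0.76), or 10 and 7 by library totals alone. Elovl7, which elongates very long fatty acids, fell 44.4-fold from 57.2 and 59.3 to 1.73 and 0.911 CPM. Scd2, a desaturase and by far the most abundant gene of the list, fell 2.98-fold from 18670 and 18140 to 6438 and 5897 CPM. Genes of lipid uptake, storage and efflux moved the other way, with 8 rising and 2 falling of 15 (median 0.81), and 1 falling without uncrushed library 1 or either day 3 library and by library totals alone. Abca1, which exports cholesterol to apolipoproteins, rose 10.9-fold from 90.8 and 86.7 to 926 and 1003 CPM. Apod, a lipocalin known to be induced in injured nerve, rose 3.85-fold from 2239 and 3127 to 10980 and 9697 CPM and became the second most abundant gene at day 3, at 25690 TPM. Apoe, a carrier of lipids released from debris, rose 2.31-fold from 248 and 267 to 582 and 610.2 CPM. This list took 0.5563 and 0.7138% of TPM in uncrushed nerve and 2.931 and 2.65% at day 3, a difference that rests mostly on Apod.

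Most transcripts listed for contacts between axon and Schwann cell fell with those of myelin. Of 17 tested genes of the axoglial junction and the node 13 fell and 3 rose (median -1.34). Nfasc, whose products anchor the paranode and the node, fell 7.86-fold from 125 and 161 to 20.5 and 15.9 CPM. The genes that rose were Ezr, a membrane linker, and the adhesion molecules Nrcam, at 85 and 103 CPM in uncrushed nerve and 171 and 176 at day 3, and Cntn1, at 3.16 and 1.88 and 6.86 and 5.01 CPM. Without day 3 library 1 the log2 fold change of Cntn1 was 0.97 and was not called. Of 15 potassium and sodium channel genes 9 fell and 2 rose (median -0.93), and the rises numbered 0 without day 3 library 1 and 1 without uncrushed library 2 or day 3 library 2. Kcna2 and Kcna1, the channels of the juxtaparanode, had among the deepest falls. Kcna2 went from 924 and 1298 to 19.9 and 15.7 CPM, 62.5-fold lower, and Kcna1 from 231 and 300.4 to 11.9 and 6.51 CPM.

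Markers of the Schwann cell lineage as a whole moved far less than myelin genes. Of 12 tested, 6 fell, 2 rose and 4 were not called, with a median of -0.53. Sox10, the transcription factor that defines the lineage, was at 69.5 and 92.96 CPM in uncrushed nerve and 68.3 and 67.2 CPM at day 3. Its day 3 libraries lay just below the uncrushed range and the difference was not called (log2 fold change -0.26 ± 0.16 SE, edgeR adjusted p = 0.234), while library totals alone turned it slightly positive, at 0.15. Erbb3, the neuregulin receptor of Schwann cells, rose 1.69-fold from 208 and 249 to 393 and 379.8 CPM, and Foxd3, a factor of neural crest and early glia, rose 2.29-fold from 5.13 and 7.86 to 14.8 and 14.5 CPM. S100b, a calcium-binding protein used to stain Schwann cells, fell 2.76-fold from 3152 and 2842 to 1174 and 998 CPM. Scn7a, an atypical sodium channel of nonmyelinating Schwann cells, fell 9.15-fold from 568 and 796 to 61.2 and 87.6 CPM.

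Genes of the repair Schwann cell rose. Of 17 tested 15 rose, 1 fell and 1 was not called (median 3.42, or 3.19 with the 4 genes near 0 in uncrushed nerve placed at their bounds). The list includes genes that the study singled out on these samples, so its direction is not independent evidence. Ngfr, the p75 neurotrophin receptor, stood at 47.3 and 50.1 CPM in uncrushed nerve and 1354 and 1376 CPM at day 3, 28.1-fold higher (log2 fold change 4.81 ± 0.24 SE, edgeR adjusted p = 1.29e-07). Runx2, a transcription factor best known from bone, rose 27-fold from 5.37 and 4.22 to 139 and 125 CPM. Sox2, a factor of immature Schwann cells, rose 11.5-fold from 2.05 and 3.17 to 26.7 and 31.6 CPM. Atf3 and Jun, injury-responsive factors of the AP-1 and CREB families, rose 13.2-fold and 3.86-fold, with Jun at 36.8 and 33.8 CPM in uncrushed nerve and 134 and 139 CPM at day 3. In none of these did the groups overlap.

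Gdnf, a survival factor for motor neurons, had 1 and 0 counts in uncrushed nerve and 36.6 and 36.7 CPM at day 3, at least 124-fold higher. Shh, a hedgehog ligand, had 0 counts in both uncrushed libraries and 2.94 and 2.41 CPM at day 3, at least 9.102-fold higher. Bdnf, a neurotrophin, also had 0 counts in uncrushed nerve and stood at 1.42 and 1.27 CPM at day 3, at least 4.58-fold higher. Btc, an EGF-like ligand, was at 0.158 and 0.235 and then 9.14 and 9.702 CPM, at least 32-fold higher. Lif, a cytokine of the interleukin-6 family, rose 4.599-fold from 0.395 and 0.939 to 2.08 and 3.73 CPM (log2 fold change 2.20 ± 0.47 SE, and 2.87 without uncrushed library 2). Gfra1, the coreceptor for Gdnf, was already present at 172 and 175 CPM and rose 4.23-fold to 748 and 722 CPM. Tnc and Cd24, surface and matrix proteins of the injured nerve, rose 6.67-fold and 10.7-fold. The modest end of the list held Mdk, which encodes the heparin-binding factor midkine, at 20.6 and 27.9 against 33.4 and 34.8 CPM (1.42-fold). Gap43, a growth-associated membrane protein, went against the list, falling from 26.99 and 14.9 to 10.7 and 12.98 CPM. The calls of Mdk and of Gap43 were each lost without uncrushed library 1 (log2 fold changes 0.29 and -0.32), day 3 library 1 (0.54 and -0.69) or day 3 library 2 (0.48 and -0.97).

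**Figure D2:**
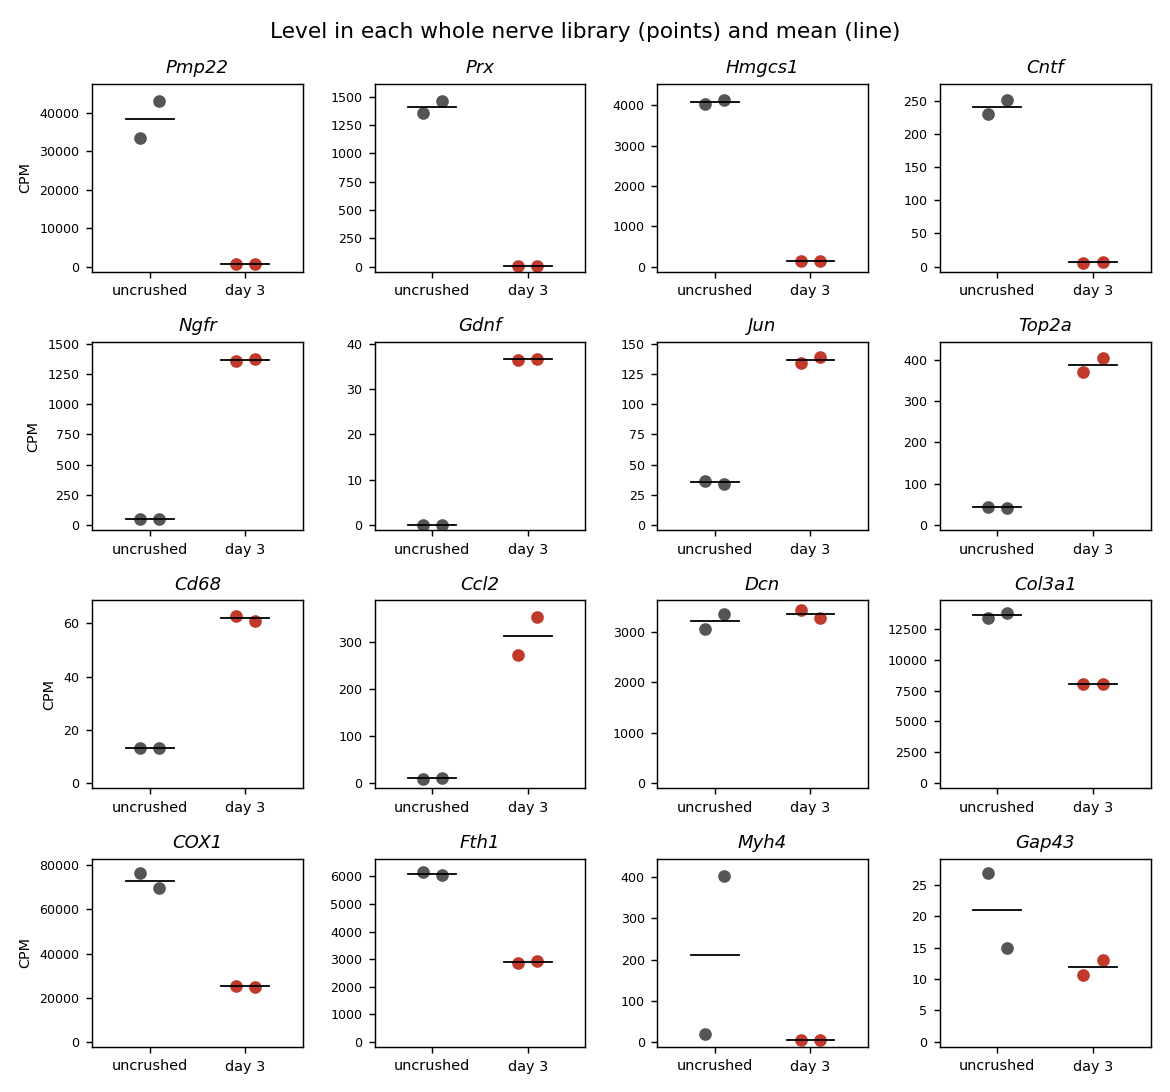
Level of 16 genes in each whole nerve library, in CPM on a linear axis that differs between panels. Points are libraries and lines are group means; the day 3 points lie near 0 for Pmp22, Prx, Hmgcs1 and Cntf, the uncrushed points lie near 0 for Gdnf and Ngfr, the groups overlap for Dcn, and 1 uncrushed library stands apart for Myh4.

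Among growth factors outside that list, 7 of 21 tested genes rose and 7 fell (median -0.16). Cntf, the ciliary neurotrophic factor stored in myelinating Schwann cells, fell 39-fold, from 230.5 and 251 to 5.89 and 6.42 CPM (log2 fold change -5.29 ± 0.12 SE, edgeR adjusted p = 1.43e-09). Fgf1, an acidic fibroblast growth factor, fell 17.7-fold from 434 and 491 to 27.1 and 25.2 CPM. Nrg1, the ligand of Erbb3, fell 8.38-fold from 3.24 and 4.11 to 0.305 and 0.547 CPM. Igf2, an insulin-like growth factor made by many mesenchymal cells, fell 2.21-fold from 1403 and 1298 to 648 and 573 CPM. The risers included Fgf5, with 0.0789 and 0.352 CPM in uncrushed nerve and 9.44 and 6.74 at day 3 (at least 27.5-fold higher), and Edn3, which encodes endothelin 3, with 1.03 and 1.76 and 23.1 and 16.9 CPM (14.8-fold).

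Genes of cell division rose together. All 26 genes of mitosis rose (against 23.1% of all genes called higher), within a narrow range of log2 fold changes from 2.72 to 3.98 and with a median of 3.27. All 23 genes of DNA replication rose as well (median 1.86). Top2a, the topoisomerase that untangles replicated chromosomes, stood at 44.3 and 41.9 CPM in uncrushed nerve and 369 and 404 CPM at day 3, 8.95-fold higher (log2 fold change 3.16 ± 0.12 SE, edgeR adjusted p = 1.87e-08). Ccnb1, the cyclin of mitotic entry, rose 13.5-fold from 4.81 and 5.05 to 66.3 and 66.6 CPM, and Plk1, a kinase of spindle assembly, rose 15.8-fold from 1.42 and 2.11 to 29.2 and 25.3 CPM. Rrm2, which makes deoxynucleotides for replication, rose 22.2-fold from 14.2 and 15.8 to 335 and 330.5 CPM, and Pcna, the sliding clamp of the polymerase, rose 3.02-fold from 74.03 and 60.5 to 206 and 202 CPM. The mitosis list took 0.01363 and 0.01371% of TPM in uncrushed nerve and 0.1588 and 0.1714% at day 3. Bulk RNA does not say which cells divided. Of 10 tested CDK inhibitors and p53 targets 6 rose and 3 fell, with Gadd45a, a stress-induced growth arrest gene, rising from 14.8 and 11.5 to 190.1 and 178 CPM, and the CDK inhibitors Cdkn1c (51.9 and 42.96 to 17.5 and 17.4 CPM) and Cdkn1b (70.5 and 81.6 to 36.2 and 32.2 CPM) falling.

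Because the mitosis genes moved together, the letters of their promoters were searched for the core of the CHR element, TTTGAA, and for the CCAAT box, motifs known from promoters of genes active in late cell cycle. The promoters run from 250 bases before to 50 bases after the start of the RefSeq gene record in the assembly GRCr8, and 21 of the 26 mitosis genes matched a record. On either strand TTTGAA occurred in 15 of the 21 promoters (71.4%) and in 18.3% of all 33469 promoters of the table. CCAAT occurred in 16 of the 21 (76.2%) and in 37.5% of all. In the promoters of the cholesterol genes, searched for TCACNCCAC, these letters occurred in 0 of the 16 that matched a record, out of 24 listed, and in 1.12% of all. These are matches of letters and not sites of binding, and a missing match says only that the letters are not in the window. The promoters of Plk1, Prc1 and Top2a are shown because these genes were among the most clearly raised and hold both motifs. Capitals mark both motifs on either strand, so that ATTGG and TTCAAA are the reverse-strand forms.
Plk1 (GRCr8, chr1:186147408-186147707, + strand): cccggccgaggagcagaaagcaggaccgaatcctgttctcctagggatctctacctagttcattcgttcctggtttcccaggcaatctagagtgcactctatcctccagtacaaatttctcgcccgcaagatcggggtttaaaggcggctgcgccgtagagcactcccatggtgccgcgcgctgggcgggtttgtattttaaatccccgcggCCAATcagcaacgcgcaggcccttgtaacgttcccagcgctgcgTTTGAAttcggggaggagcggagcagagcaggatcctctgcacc
Prc1 (GRCr8, chr1:143659231-143659530, + strand): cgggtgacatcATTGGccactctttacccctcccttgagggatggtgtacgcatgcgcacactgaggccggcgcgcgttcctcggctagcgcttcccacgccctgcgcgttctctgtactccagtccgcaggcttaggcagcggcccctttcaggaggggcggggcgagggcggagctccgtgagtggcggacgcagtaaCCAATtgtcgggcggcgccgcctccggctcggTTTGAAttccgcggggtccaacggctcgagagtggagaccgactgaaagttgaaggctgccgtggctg
Top2a (GRCr8, chr10:84473044-84473343, - strand): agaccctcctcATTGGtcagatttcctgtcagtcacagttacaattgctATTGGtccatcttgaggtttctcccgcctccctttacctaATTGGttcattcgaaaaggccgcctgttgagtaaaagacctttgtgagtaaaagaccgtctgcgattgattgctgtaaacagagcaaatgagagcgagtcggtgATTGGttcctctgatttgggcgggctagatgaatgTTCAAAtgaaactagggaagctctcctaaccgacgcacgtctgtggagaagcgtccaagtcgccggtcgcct

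Macrophage and monocyte markers rose in 21 of 22 tested genes and fell in 1, with a median of 1.65. The gene that fell, not named here, had a log2 fold change of -1.02. By library totals alone, by DESeq2 and in the fit of all 16 libraries 0 were called lower. Leaving out 1 library gave medians from 1.63 to 1.85. Cd68, a lysosomal glycoprotein of macrophages, stood at 13.2 and 13.3 CPM in uncrushed nerve and 62.9 and 60.99 CPM at day 3, 4.68-fold higher (log2 fold change 2.23 ± 0.11 SE, edgeR adjusted p = 1.27e-07). Csf1r, the receptor on which macrophages depend, rose 2.22-fold from 116 and 121 to 274 and 253 CPM. C1qa, a complement component made by resident macrophages, rose 2.93-fold from 14.5 and 12.2 to 42.4 and 36.6 CPM, and Cx3cr1, the fractalkine receptor, 3.55-fold from 9.39 and 7.16 to 30.3 and 29.1 CPM. Larger rises belonged to Gpnmb, a glycoprotein of lipid-laden phagocytes (30.7 and 32.6 to 297 and 339 CPM, 10.1-fold), and Lyz2, lysozyme (328 and 330.2 to 1857 and 1789 CPM, 5.54-fold). Ptprc, the pan-leukocyte antigen CD45, rose 3.67-fold from 23.4 and 22.3 to 81.5 and 86.2 CPM. The list took 0.1047 and 0.09925% of TPM in uncrushed nerve and 0.5755 and 0.5772% at day 3, still a minor part of the tissue's RNA.

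Markers of other leukocytes were counted list by list. Of 13 neutrophil markers 5 were abundant enough to test and 2 rose, Csf3r, the receptor for granulocyte colony-stimulating factor (0.947 and 0.469 to 6.499 and 5.88 CPM, 8.26-fold, with a log2 fold change of 3.71 without uncrushed library 1), and Retnlg, a resistin-like protein of granulocytes (at most 1 count in uncrushed nerve and 4.21 and 3.55 CPM at day 3, at least 13.2-fold higher). The defining neutrophil marker S100a9 was at 2 and 0 counts in uncrushed nerve and 19 and 4 at day 3, too few to place the neutrophil level at this depth. Of 9 tested T and NK cell markers 4 rose, among them Cd8a, the coreceptor of cytotoxic T cells (1.105 and 0.352 to 4.62 and 6.15 CPM, 6.804-fold, with a log2 fold change of 3.92 without uncrushed library 1). The T cell receptor component Cd3e stayed at 3 counts or fewer in uncrushed nerve and at 8 and 3 at day 3. The B cell markers Ms4a1 and Cd79a had at most 2 counts in any library, and the only tested gene of that list, Fcrla, rose from 0.316 and 0.117 to 2.34 and 1.64 CPM. Of 9 tested mast cell markers 2 rose and 0 fell (median -0.12, against 23.1% of all genes called higher), 1 rose without uncrushed library 2 or day 3 library 2, and 4 rose by library totals alone. Of 11 tested genes of antigen-presenting and dendritic cells 10 rose and 1 fell (median 1.40). Cd74, the invariant chain of MHC class II, rose 2.304-fold from 70.4 and 78.9 to 175 and 169 CPM, RT1-Da, a rat class II chain, 2.89-fold from 18.4 and 24.4 to 65.4 and 57.4 CPM, and Flt3, a receptor of dendritic cell precursors, 9.24-fold from 0.552 and 0.352 to 4.32 and 4.46 CPM. The falling gene was Zbtb46, a factor of classical dendritic cells that endothelium also expresses (17.4 and 20.9 to 13 and 13.3 CPM). Its call was lost without uncrushed library 2 (log2 fold change -0.40), day 3 library 1 (-0.51) or day 3 library 2 (-0.54).

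Chemokines rose broadly. Of 23 tested 16 rose and 1 fell, with a median of 1.75, or 1.33 with the 6 genes near 0 in a group placed at their bounds. By library totals alone 16 rose and 0 fell, by DESeq2 13 and 1, and in the fit of all 16 libraries 15 and 0 of 25. With at least 10 counts in every library 9 of 12 rose and 1 fell. With only the 4 libraries compared 12 of 18 rose and 1 fell. Leaving out 1 library gave medians from 1.405 to 1.76. Ccl2, the main attractant of monocytes, stood at 9.23 and 11.8 CPM in uncrushed nerve and 271 and 353 CPM at day 3, 29.9-fold higher (log2 fold change 4.91 ± 0.20 SE, edgeR adjusted p = 2.95e-08). Ccl17, a ligand for T cells, had 0 counts in uncrushed nerve and 0.914 and 0.41 CPM at day 3, at least 2.25-fold higher. Among 12 tested cytokines 7 rose and 4 fell. Il1rn, the antagonist of the interleukin-1 receptor, rose 8.34-fold from 2.13 and 1.06 to 14.9 and 13.03 CPM, and Il1b, its opposing ligand, rose 3.67-fold from 0.71 and 0.235 to 1.88 and 1.87 CPM. Without uncrushed library 1 the log2 fold changes of Il1rn and Il1b were 3.72 and 2.96, against 3.06 ± 0.26 and 1.88 ± 0.51 (SE) with all libraries, and without uncrushed library 2 that of Il1b was 1.39 and was not called. Il34, an alternative ligand of Csf1r, fell 4.59-fold from 14.9 and 18.2 to 2.49 and 4.65 CPM. Tnf was not tested, with 1 and 3 counts in uncrushed nerve and 0 and 9 at day 3.

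Of 17 complement genes 15 rose and 2 fell (median 1.34). C3, the central component, rose 4.36-fold from 4.66 and 5.05 to 20.5 and 21.7 CPM, while Cd55 and Cd59, which protect cells from complement, fell from 62.7 and 52 to 38.9 and 36.3 and from 524 and 618 to 443 and 346 CPM. Neither fall was called with library totals alone, and that of Cd59 was lost without uncrushed library 2 (log2 fold change -0.40) or day 3 library 2 (-0.35). Of 20 phagocytic receptors and bridging proteins 16 rose and 2 fell (median 1.14), and 1 fell without uncrushed library 2 or day 3 library 2, by library totals alone and in the fit of all 16 libraries. Clec7a, the beta-glucan receptor dectin-1, rose 13.7-fold from 1.89 and 2.58 to 31.6 and 28.4 CPM. Lgals3, a galectin of phagocytes that Schwann cells also make after injury, rose 4.41-fold from 38.04 and 47.5 to 184 and 192 CPM. The receptors for phosphatidylserine bridges rose less, Mertk 2.17-fold (19.6 and 21.1 to 45.2 and 43.05 CPM) and Axl 1.66-fold (69.2 and 69.7 to 109 and 121 CPM), and Megf10, another engulfment receptor, fell 2.33-fold. Of 30 lysosome genes 21 rose and 1 fell (median 0.67). Lipa, the acid lipase that frees cholesterol from esters, rose 5.52-fold from 32.1 and 36.5 to 188 and 189.7 CPM, and Ctsb, a cathepsin, 2.85-fold from 374 and 364 to 1070 and 1032 CPM. The gene that fell was Ctsk, the cathepsin of osteoclasts and fibroblasts (44.5 and 44.2 to 27.5 and 27.1 CPM). In purified Schwann cells 22 of the 30 lysosome genes rose and 1 fell (median 1.00). The injury effect was called higher in whole nerve for 4 and lower for 11, against 13.7 and 12.3% of all genes. Of 13 complement genes tested in Schwann cells 2 rose and 4 fell, and of 15 phagocytic genes 4 rose and 6 fell. Over all genes tested in Schwann cells 26.9% were called higher and 25.7% lower.

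**Figure D3:**
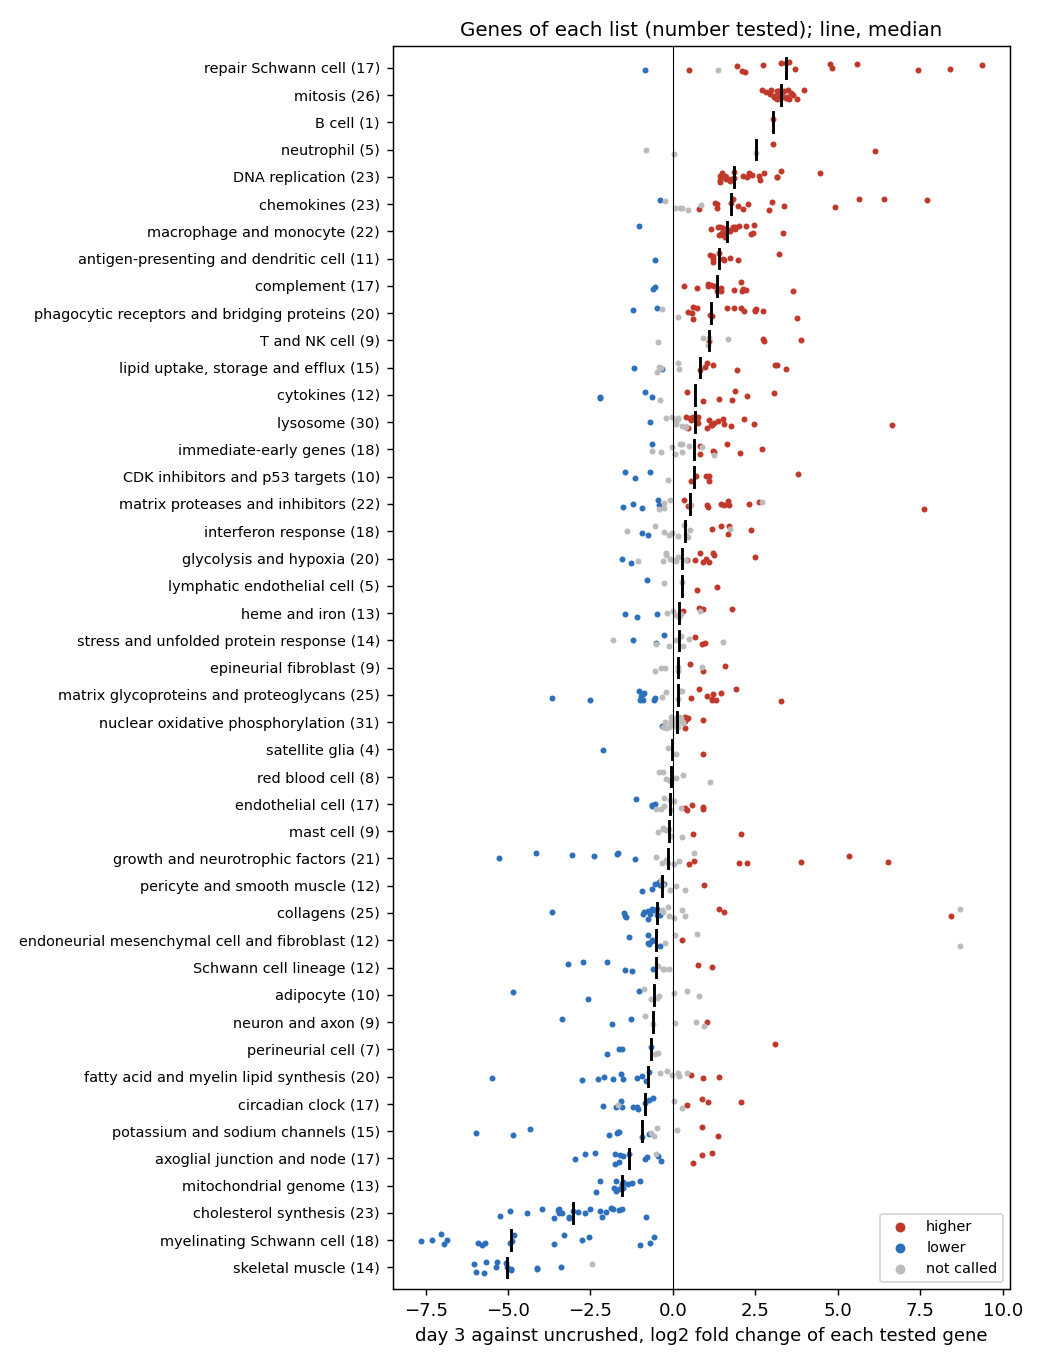
Log2 fold change of each tested gene at day 3 by list, with the number tested in parentheses, red for genes called higher, blue for lower and grey for uncalled, and a black line at the median. The repair and mitosis lists sit highest with medians of 3.42 and 3.27, and the cholesterol, myelin and skeletal muscle lists lowest with medians of -3.03, -4.90 and -5.04.

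Of 17 tested endothelial genes 5 rose and 4 fell, against 23.1 and 22.5% of all genes (median -0.10, and 6 and 1 by library totals alone). Without uncrushed library 1 the counts were 3 and 3, without day 3 library 1 or by DESeq2 they were 3 and 4, and in the fit of all 16 libraries they were 3 and 3. Plvap, a protein of fenestrated and permeable endothelium, rose 1.9-fold from 6.87 and 5.399 to 11.8 and 11.8 CPM, and Tie1, an endothelial receptor kinase, 1.49-fold from 17.1 and 14.6 to 24.5 and 23 CPM. Cldn5, the claudin of tight junctions in barrier endothelium, fell 2.19-fold from 20.8 and 22.4 to 8.94 and 10.8 CPM. Of 12 pericyte and smooth muscle genes 6 fell and 1 rose (median -0.33), but only 1 fell and 3 rose with library totals alone. The falls numbered 3 without either uncrushed library, 2 without day 3 library 1, 1 without day 3 library 2 and 1 in the fit of all 16 libraries. Myh11, the myosin of smooth muscle, fell 1.93-fold from 62.7 and 46.5 to 28.2 and 28.5 CPM, and Tagln, an actin-binding protein of contractile cells, rose 1.91-fold from 18.4 and 14.8 to 32.95 and 30.8 CPM. Of 5 lymphatic genes 2 rose and 1 fell, or 3 and 0 by library totals alone. Lyve1, listed as a marker of lymphatic endothelium and also found on tissue macrophages, rose 2.52-fold from 172 and 152 to 424 and 393 CPM, whereas Prox1, the factor that defines lymphatic endothelium, fell 1.71-fold from 26.4 and 24.5 to 15.03 and 14.8 CPM.

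Of 12 tested genes of endoneurial mesenchymal cells and fibroblasts 7 fell and 1 rose (median -0.51), with 3 in each direction by library totals alone. Without day 3 library 2 there were 4 falls and 2 rises, and without day 3 library 1 there were 6 and 0. The counts of rises by library totals and without day 3 library 2 each include Col1a2, whose listed zeros can be failed estimates. Dcn, the proteoglycan decorin, was level at 3061 and 3368 CPM in uncrushed nerve and 3437 and 3284 CPM at day 3, and the groups overlapped (log2 fold change 0.06 ± 0.08 SE, edgeR adjusted p = 0.561). By library totals alone Dcn was called higher, with a log2 fold change of 0.47. Pdgfra, a receptor of mesenchymal cells, rose 1.21-fold from 223 and 243 to 291 and 273 CPM, a call lost without uncrushed library 1 or day 3 library 1, where the log2 fold changes were 0.22 and 0.24. Of 9 epineurial fibroblast genes 3 rose, among them the peptidase Dpp4, from 94.2 and 100.4 to 128 and 148 CPM. Without uncrushed library 2 there were 2 rises and 1 fall, without day 3 library 2 there were 3 and 1, and by library totals alone 6 and 0. Of 7 tested perineurial genes 4 fell and 1 rose. Slc2a1, the glucose transporter of the perineurial barrier, fell 1.58-fold from 114 and 140.5 to 81.3 and 79.4 CPM, though not by library totals alone. Msln, which encodes mesothelin, rose 8.53-fold from 1.03 and 1.06 to 7.67 and 10.2 CPM. By share of TPM the fibroblast list was at 1.004 and 1.142% in uncrushed nerve and 1.036 and 1.033% at day 3, with overlapping ranges. A share of TPM rises when other genes take less, and the mitochondrial genome took less at day 3. In summed CPM, scaled by TMM, the fibroblast list went from 28240 and 32250 to 20590 and 20170. The perineurial list went from 719.3 and 1069 to 506.4 and 527 in summed CPM. Of 4 tested markers of satellite glia 1 rose and 1 fell, or 2 and 1 without uncrushed library 1 and 3 and 1 by library totals alone.

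**Figure D4:**
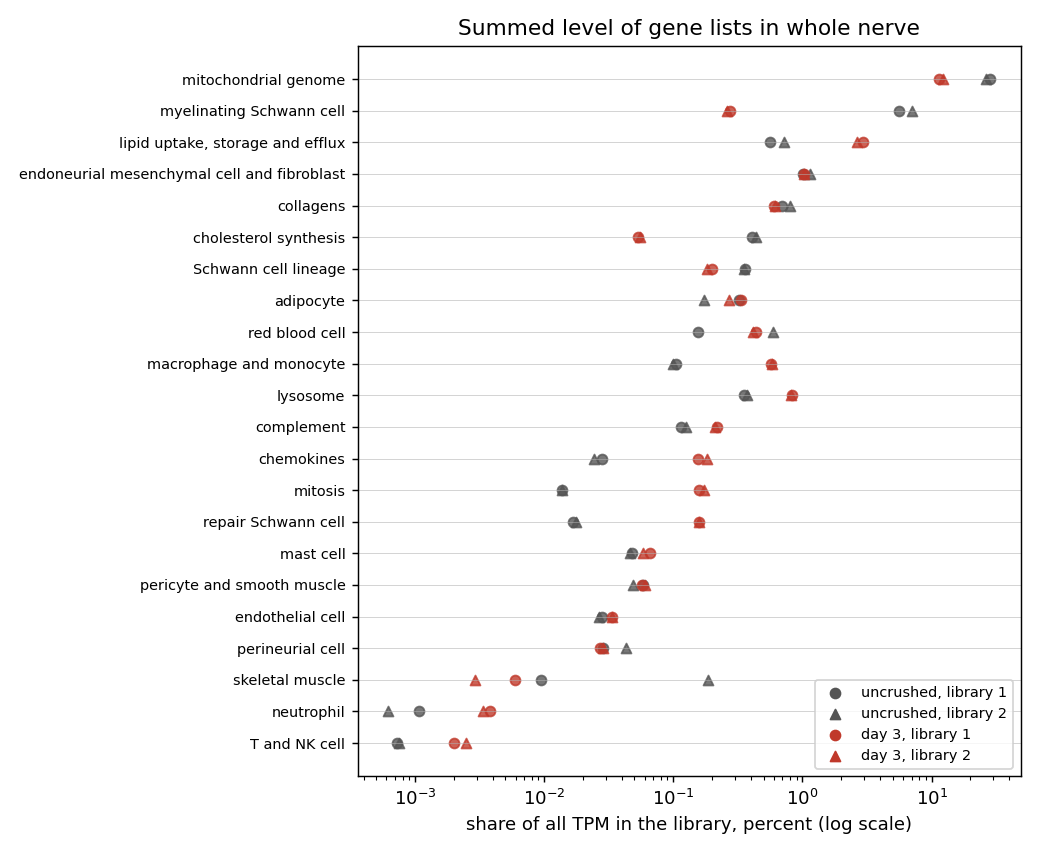
Summed TPM of gene lists as a share of each whole nerve library, in percent on a log axis, for uncrushed (grey) and day 3 (red) libraries, circles for library 1 and triangles for library 2. The mitochondrial genome went from 28.56 and 26.49% to 11.45 and 12.26%, and myelin genes were at 0.2765 and 0.2604% at day 3. Macrophage, chemokine, mitosis and repair lists lay higher at day 3. Fibroblast, vessel and perineurial lists stayed close in share of TPM, while the summed CPM of the fibroblast and perineurial lists were lower at day 3. Uncrushed library 2 stood apart for skeletal muscle.

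Matrix genes moved in both directions. Of 25 tested collagens 14 fell and 3 rose (median -0.47, with 8 falling and 7 rising by library totals alone, and 11 and 5 without uncrushed library 2). The 7 include Col1a2, whose listed zeros can be failed estimates. Col1a1 and Col3a1, the fibrillar collagens of the endoneurium, were the most abundant, and Col3a1 fell 1.696-fold from 13390 and 13800 to 7999 and 8038 CPM. Col1a1 fell 1.54-fold from 9422 and 12320 to 7114 and 6961 CPM, a call that was lost without uncrushed library 2 (log2 fold change -0.42) or day 3 library 2 (-0.60) and with library totals alone. Col28a1, a collagen found next to nonmyelinating glia and nodes, fell 12.6-fold from 68.98 and 82.04 to 6.09 and 5.83 CPM, and Col18a1, a basement membrane collagen, rose 2.93-fold from 39.6 and 40.4 to 126 and 109 CPM. Of 25 matrix glycoproteins and proteoglycans 10 rose and 10 fell. Gpc1, the glypican on axons and Schwann cells, rose 9.603-fold from 15.9 and 20.8 to 179 and 170.4 CPM. Spp1, the secreted phosphoprotein osteopontin, rose 2.47-fold from 86.7 and 96.01 to 203 and 248 CPM. Sema5a, a guidance molecule with a matrix-binding domain, fell 12.8-fold from 1682 and 2130 to 149 and 149.9 CPM, Sparcl1, a matricellular protein, 5.77-fold from 376 and 461 to 76.2 and 69.01 CPM, and Sparc 1.98-fold from 7948 and 8820 to 4326 and 4165 CPM. Of 22 proteases and inhibitors 11 rose and 5 fell, or 14 and 3 by library totals alone. Timp1, an inhibitor of metalloproteinases, rose 3.17-fold from 45.9 and 50.6 to 157 and 148 CPM, and Mmp9, a gelatinase that opens basal lamina, had 0 counts in uncrushed nerve and 1.78 and 1.32 CPM at day 3, at least 5.26-fold higher.

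Markers of the tissues around the nerve differed between the uncrushed libraries. Of 14 skeletal muscle genes 13 fell, with a median of -5.04. However, Myh4, the fast myosin heavy chain, was at 17.5 and 404 CPM in the uncrushed libraries and 4.87 and 3.42 CPM at day 3, and Ckm, muscle creatine kinase, at 7.66 and 123 and 1.93 and 1.18 CPM. Uncrushed library 2 carried most of the muscle RNA. Without it 0 of the 14 genes were called in edgeR, 3 had an unadjusted p below 0.05, and the median was -1.84, while leaving out day 3 library 1 or 2 left 5 or 3 genes called. The list took 0.009529 and 0.1873% of TPM in the uncrushed libraries and 0.005915 and 0.002925% at day 3. The same library held more red cell RNA (0.592% of TPM for that list, against 0.1543% in the other uncrushed library and 0.4341 and 0.4158% at day 3), and 0 of 8 red cell genes were called by edgeR or by DESeq2, with 0 at an unadjusted p below 0.05. Without that library 3 of the 8 were called higher (median 1.15), and without the other uncrushed library 2 were called lower (median -0.62). Of 10 tested adipocyte genes 3 fell and 0 rose. Without uncrushed library 2 the count of falls was 7 and without day 3 library 1 it was 5, while without uncrushed library 1, and likewise by library totals alone, there were 2 in each direction, and without day 3 library 2 there were 2 falls and 1 rise. Adipoq, the adipokine of fat cells, was at 526 and 274 CPM in uncrushed nerve and 289.5 and 222 CPM at day 3, a difference that was not called, and without uncrushed library 2 it was called, at -1.04 (log2). Slc36a2, a proline and glycine transporter placed on that list for brown fat, fell 28.6-fold from 105 and 126 to 4.21 and 3.83 CPM, and it also fell in purified Schwann cells.

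Neuronal transcripts were rare. The nerve holds axons but no neuronal cell bodies. Of 9 tested 3 fell and 1 rose, or 2 and 3 without day 3 library 1, 3 and 2 by library totals alone and 2 and 2 in the fit of all 16 libraries. The highest log2 fold change of the list was 1.03, and the gene called higher is not named here. Snap25, a synaptic vesicle fusion protein, fell 2.43-fold from 5.998 and 3.99 to 2.23 and 1.91 CPM. Nefh, the heavy neurofilament, fell 10.3-fold from 1.66 and 1.41 to 0 and 0.273 CPM. Nefm, the medium neurofilament, was at 22.6 and 18.7 CPM in uncrushed nerve and 23.4 and 56.8 CPM at day 3, where 1 library was well above the other, and was not called. Leaving out a library changed each of these calls. Snap25 was lost without uncrushed library 1 or day 3 library 2 (log2 fold changes -0.94 and -1.16), Nefh without uncrushed library 1 or day 3 library 1 (-3.24 and -2.45, against -7.53 without day 3 library 2), and Nefm was called without day 3 library 1 (1.46).

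The mitochondrial genome took a much smaller share of RNA after crush. All 13 of its protein genes fell (median -1.54), and together they went from 28.56 and 26.49% of TPM in uncrushed nerve to 11.45 and 12.26% at day 3. COX1, a core subunit of cytochrome oxidase and the most abundant gene in both groups, fell 2.92-fold from 76490 and 69740 to 25390 and 24760 CPM (log2 fold change -1.54 ± 0.10 SE, edgeR adjusted p = 8.79e-07). ND6, on the opposite strand of the circle, fell most, 5.04-fold from 432 and 406 to 85 and 81.4 CPM. The nuclear genes of the same complexes did not share the fall, with 7 of 31 rising and 1 falling (median 0.13, and 25 rising by library totals alone). Without day 3 library 1 the counts were 4 and 0, and without uncrushed library 1 or day 3 library 2 they were 6 and 0. Cox5b, a nuclear-encoded subunit of cytochrome oxidase, rose 1.896-fold from 55.01 and 52.2 to 106 and 97.02 CPM. Of 20 genes of glycolysis and the response to hypoxia 9 rose and 2 fell. Pgk1, a glycolytic kinase, rose 2.38-fold from 89.97 and 95.1 to 210.4 and 231 CPM, Car9, a carbonic anhydrase induced by hypoxia, rose 5.67-fold from 0.473 and 0.469 to 2.18 and 3.23 CPM, and Bnip3, a hypoxia-induced mitophagy receptor, fell 2.404-fold from 197 and 165 to 80.4 and 70.4 CPM. Vim, the intermediate filament of mesenchymal and immature glial cells, rose 3.21-fold from 1869 and 2102 to 6274 and 6453 CPM and S100a11, a calcium-binding protein, 2.52-fold from 493 and 478 to 1282 and 1171 CPM, and both were among the 15 most abundant genes at day 3.

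The whole nerve response was then set beside that of Schwann cells purified from nerves at the same stages. The purified cells were obtained by dissociation and immunopanning, so tissue and preparation cannot be told apart in the libraries used here. The study also supplies values of dissociated nerve, which were not used. In the Schwann cells 52.5% of the tested genes were called, 26.9% higher and 25.7% lower. Of 14030 genes tested in both, 4305 were called in both, 3785 in the same direction and 520 in opposite directions. Among the genes tested in both tissues, those called in the same direction were 58.36% of the genes called in whole nerve and 50.68% of the genes called in Schwann cells. The log2 fold changes had a Pearson correlation of 0.56 across genes, which is a description over genes and not over independent samples. In a fit of all 16 libraries the effect of injury at day 3 differed between the tissues in 4376 of 16829 genes (26.0%), being higher in whole nerve in 2300 and lower in 2076, or in 4457 and 1078 when scaled by library totals alone.

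Of 18 immediate-early genes 7 rose and 1 fell in whole nerve, 0 rose and 12 fell in Schwann cells, and the difference was called for 13, each higher in whole nerve. Without day 3 library 2 the whole nerve counts were 4 and 2, and without uncrushed library 1 or by DESeq2 they were 5 and 2, while library totals alone gave 11 and 0. Fos, a component of AP-1, rose from 4.26 and 3.52 to 15.2 and 17.2 CPM in whole nerve and went from 1279 and 1381 to 359 and 354 CPM in Schwann cells. The injury effect in whole nerve exceeded that in Schwann cells by 4.04 ± 0.24 (SE) on the log2 scale (edgeR adjusted p = 5.87e-08). Socs3, a feedback inhibitor of cytokine signalling, rose from 1.97 and 2.7 to 11.9 and 17.9 CPM in whole nerve and went from 354 and 408 to 44.6 and 41.8 CPM in Schwann cells, a difference of 5.95 ± 0.27 (SE). Jun followed the same pattern, with 1088 and 1216 CPM in uncrushed and 691 and 664 CPM in day 3 Schwann cells and a difference of 2.82 ± 0.16 (SE), as did Atf3, with 693 and 702 and 544 and 518 CPM. With CPM scaled separately in each tissue, all 4 were higher in uncrushed Schwann cells than in whole nerve of either group. The part of dissociation in these levels was not tested. The paper expects little change of expression during purification except in immediate early genes, and it reports having compared whole with dissociated nerve. Ccl2 rose in whole nerve and fell in Schwann cells too, at 297 and 277 CPM in uncrushed and 122 and 179 CPM in day 3 Schwann cells, against 9.23 and 11.8 and 271 and 353 CPM in whole nerve.

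Other genes differed in the opposite sense. Cntf fell 39-fold in whole nerve but went only from 29.8 and 24.7 to 19.2 and 18.4 CPM in Schwann cells, a difference of -4.64 ± 0.18 (SE, edgeR adjusted p = 2.4e-09). Gap43, which fell in whole nerve, and Mdk, which rose 1.42-fold there, rose in Schwann cells from 1.67 and 1.46 to 14.4 and 16.1 and from 1.81 and 2.19 to 22.9 and 29.9 CPM. Without uncrushed library 1 their whole nerve log2 fold changes were -0.32 and 0.29, against -0.84 and 0.50 with all libraries. S100b fell in whole nerve and rose in Schwann cells, from 675 and 571 to 1682 and 1478 CPM. Among 18 myelin genes the injury effect was called lower in whole nerve for 15 and higher for 1. Mbp was still at 703 and 773 CPM in day 3 Schwann cells, from 2852 and 3265 in uncrushed ones, against 458 and 418 CPM in day 3 whole nerve, and Pmp2 at 90.8 and 90.7 against 91.04 and 83.5 CPM. The 13 mitochondrial genes fell in whole nerve, while 11 rose in Schwann cells, and the difference was called for all 13. Division genes rose in both, and more in whole nerve for all 26 mitosis genes. Top2a was at 213 and 166 CPM in uncrushed and 315 and 305 CPM in day 3 Schwann cells. Apoe and Cp, a copper oxidase that handles iron, rose in whole nerve and fell in Schwann cells, with differences of 3.77 ± 0.21 and 3.75 ± 0.14 (SE). Col3a1 fell 1.696-fold in whole nerve, but in Schwann cells it fell from 4585 and 4760 to 95.5 and 172 CPM.

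**Figure D5:**
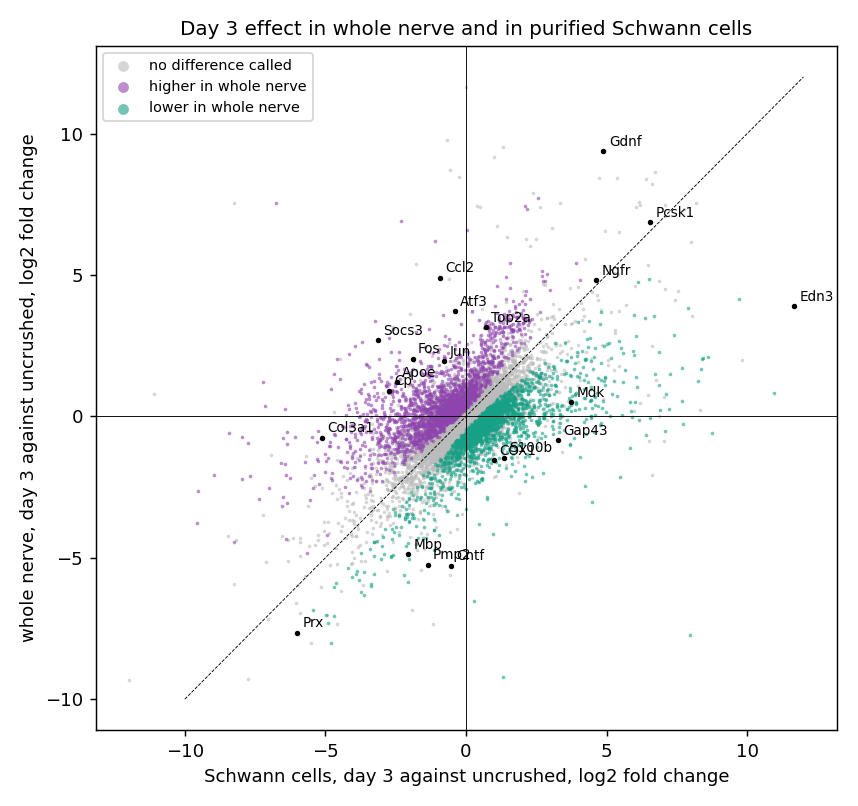
Log2 fold change from uncrushed to day 3 in purified Schwann cells (x axis) and in whole nerve (y axis) for the 14030 genes tested in both, with the line of equal change dashed. Purple and green mark genes whose injury effect was called higher or lower in whole nerve; Socs3, Ccl2, Atf3, Fos and Jun lie in the upper left, and Gap43, Mdk, S100b and COX1 to the right of the line.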

How the data were processed

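RNA of whole nerve was extracted with a kit for fibrous tissue, and the authors amplified the cDNA, with no molecular identifiers mentioned, and sequenced paired ends of 150 bases. Strand is not given in the sources used here, so overlapping and antisense genes cannot be told apart. Reads were mapped by the authors to Rnor_6.0 by means of STAR. RSEM then gave the deposited expected counts of 31038 genes, which are not normalized. The deposited TPM come from the same step by the authors and were used for shares and levels between genes. A matrix repeating these counts, the FPKM and a table of Schwann cell FPKM with the authors' module numbers were not used. Of the columns with values per sample, 0 belonged to another series.

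Expected counts were rounded, filtered by filterByExpr, scaled by TMM and fitted in R 4.3.3 by edgeR 4.0.16 (glmQLFit and glmQLFTest), in a fit of the 8 whole nerve libraries (uncrushed, 3, 5 and 7 days), with Benjamini-Hochberg adjustment at 0.05. Each standard error divides the log2 fold change by the root of its F statistic. CPM were scaled within the 8 libraries of each tissue separately. The difference between tissues was tested in 1 fit of all 16 libraries, and Schwann cells in a fit of their own 8. A permutation test of 2 against 2 cannot go below p = 0.333, so none is given. Groups with 3 counts or fewer in each library are treated as below the floor, and folds against them are bounds computed at 3 counts per library, for counting error only. Depth was 10555067 to 20203912 expected counts in the 4 libraries. On simulated counts edgeR recovered 139 of 200 changed genes among 15506, 88 of 100 that changed 4-fold, and 8 of its 147 calls were false. DESeq2 recovered 142 of 200 among 15831, with 19 of 161 calls false.

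The 45 lists (20 of cell types, 25 of functions, 758 of their 767 genes found in the files) and the genes were chosen with earlier results of these data known. Genes were named by a rule: defining markers, the 3 highest and lowest changes and the 3 most abundant genes of each list (any gene in lists of 18 or fewer), the 15 lowest adjusted p, largest changes (at 10 TPM or more) and most abundant genes, the genes the study names, and the 10 lowest adjusted p of the tissue difference per direction. Genes that were not tested are given by counts, and a few genes of the lists are not reported here by name. Alternatives were other filters, normalizations, tests (DESeq2 1.42.0) and sets of libraries, a replicate block, a 2-fold call rule and leaving out each library. Promoters come from a RefSeq table of GRCr8. Tables and plots were made in Python 3.11.15 with pandas 2.3.3, numpy 2.4.6 and matplotlib 3.10.9.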

Additional observations from a re-analysis of the deposited data

Results flagged for a closer look

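The effect of injury at day 3 differed between whole nerve and purified Schwann cells in 4376 genes by the interaction term of the edgeR fit. The preparation of the cells cannot be told apart from their type in this contrast. The paper excepts immediate early genes from its expectation of little change during purification, and its values of dissociated nerve were not used here. Values below are the log2 effect of injury in whole nerve minus that in Schwann cells.

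The difference was positive for the acute response genes Socs3 (5.95), Ccl2 (5.94), Atf3 (4.21), Fos (4.04) and Jun (2.82), which were raised by crush in whole nerve and lower after crush in Schwann cells. It was positive for the fibrillar collagen Col3a1 (4.46), which fell further in Schwann cells, for the lipid carrier Apoe (3.77), for the iron oxidase Cp (3.75) and for the mitotic gene Top2a (2.56). Top2a rose in both tissues.

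The difference was negative for the neurotrophic factor Cntf (-4.64) and for the myelin genes Pmp2 (-3.77) and Mbp (-2.71), which fell further in whole nerve. It was negative for Mdk (-3.13), which rose further in Schwann cells, and for Gap43 (-4.00) and S100b (-2.70), which rose in Schwann cells and fell in whole nerve. The whole nerve log2 fold change of Gap43 was -0.84 with all libraries and -0.32 without uncrushed library 1. The difference was also negative for the mitochondrial gene COX1 (-2.43), which fell in whole nerve and rose in Schwann cells. Groups of 2 libraries were not searched for single outlying libraries.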

How the results depend on the processing

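The count of 7212 called genes stayed within 1.5 times of itself under every alternative but the call rule that also asks for a 2-fold change, which left 3297. Leaving out each of the 4 libraries gave 5289 to 6045 calls, and leaving out each of 8 libraries gave 3190 to 4374 calls for the difference between tissues (4376 with all). Other settings gave 6216 calls by DESeq2 to 8852 by library totals alone. Library totals moved the median of all genes by 0.41 (log2) and the share of higher calls from 50.67 to 79.18%. They also turned Sox10 to a positive 0.15. Col1a2 ranged from -3.64 without day 3 library 1 to 12.46 without uncrushed library 1, but its listed zeros can be failed estimates.

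Of 2366 values of single genes under alternatives 2283 kept their direction and their side of the threshold, 68 lost their call, 13 gained one and 2 reversed. With the replicate number as a block 7351 genes were called, and 4301 for the difference between tissues. The pairing was checked by the correlation of replicate deviations between groups, which was -0.0576 to 0.0838 and 0.0273 for uncrushed against day 3, so the numbers do not pair the samples. With 2 pools per group precision is limited, and most genes with few counts were not tested.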

Other observations

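The whole nerve counts of the lists below stand against 23.1% of all genes called higher and 22.5% lower. Of 17 tested clock genes 10 fell and 4 rose (median log2 fold change -0.83). Per1, a repressor of the clock, fell 4.35-fold from 36.9 and 42.7 to 8.48 and 9.75 CPM, and Npas2, an activating partner of the clock, rose 4.15-fold from 6.79 and 8.92 to 26.8 and 37.5 CPM. The hour at which nerves were collected is not given in the sources used here. Of 18 interferon response genes 5 rose and 2 fell (median 0.36), 10 and 0 by library totals alone, 7 and 1 in the fit of all 16 libraries, 3 and 2 without uncrushed library 2, 3 and 1 without day 3 library 2, 5 and 0 without day 3 library 1, and 5 and 1 without uncrushed library 1. Gbp2, a guanylate-binding GTPase, rose 5.12-fold from 47.6 and 45.2 to 224 and 252 CPM, and Isg15, a ubiquitin-like modifier, rose 3.22-fold from 1.26 and 0.469 to 2.59 and 3.37 CPM. The call of Isg15 was lost without uncrushed library 2 (log2 fold change 1.24) or day 3 library 2 (1.495), and without uncrushed library 1 its log2 fold change was 2.66. In Schwann cells 1 of the 15 tested there rose and 11 fell, against 26.9% of all genes called higher and 25.7% lower there.

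Of 13 tested genes of heme and iron 4 rose and 3 fell (median 0.19), or 8 and 2 by library totals alone. Hmox1, which degrades heme, rose 3.46-fold from 7.02 and 5.16 to 21.7 and 21.1 CPM, and Fth1, the ferritin heavy chain and among the most abundant genes of uncrushed nerve, fell 2.12-fold from 6161 and 6047 to 2852 and 2916 CPM. Of 14 tested genes of stress and the unfolded protein response 3 rose and 3 fell (median 0.18), or 7 and 1 by library totals alone and 5 and 1 in the fit of all 16 libraries. The risers were chaperones of the endoplasmic reticulum, led in level by Hspa5, which went from 718 and 712 to 1256 and 1398 CPM, and the falling genes included the transcription factor Atf5, from 51.4 and 41.3 to 19.8 and 20.5 CPM.

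Some single values stand apart from their group. Col1a2, the partner chain of Col1a1, was listed at 86.7 and 0 CPM in the day 3 libraries and 0.158 and 0 CPM in uncrushed nerve, so nearly all of its counts came from day 3 library 1. A 0 listed for so common a collagen can be a failed estimate of the counting, so neither its levels nor its fold changes can be read as expression. It was not called in edgeR (adjusted p = 0.0532), and without that library its log2 fold change was -3.64. Col1a1, whose product pairs with that of Col1a2, was at 9422 and 12320 CPM in uncrushed nerve and 7114 and 6961 CPM at day 3.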
